A study of Mus musculus with 2 samples.

Results

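The genes described here are 9 transcription factors by which myeloid cells are told apart: *Maf*, *Gata6*, *Id3*, *Nr1h3*, *Nr4a1*, *Cebpb*, *Irf4*, *Irf8* and *Klf4*. They were taken as listed by symbol, and all 9 were among the 32285 genes counted in both libraries. Each was measured in 5 macrophage-like classes, 2 monocyte-like classes and 2 dendritic cell-like (DC-like) classes of leukocytes from neonatal mouse hearts after myocardial infarction (MI), in a WT library and a *Lyve1* KO library. Among these 9 classes, the one with the highest level of a factor was the same in both libraries for 9 of 9 factors. The share of all genes for which this holds is not given here. The same highest class was also counted for 22 of 33 relatives of the factors. These include *Gata5*, which had 0 CPM in every class and so has no highest class, and *Gata1*, with at most 0.539 CPM. It held for 11 of 15 partners and other myeloid factors. It held for 8 of 10 targets of the receptor LXR, 10 of 10 cavity macrophage genes and 11 of 16 immediate early and heat-shock genes. The *Nr1h3* class rests on low counts and was kept in 7 of 12 processing alternatives in the WT and 6 in the KO library.

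Macrophages, monocytes and dendritic cells settle into identities through small sets of transcription factors, which act in combination and often persist in the mature cell. c-MAF helps to keep macrophages differentiated, GATA6 directs the program of macrophages in the serous cavities, and ID3 and the nuclear receptor LXRα (encoded by *Nr1h3*) are known from Kupffer cells of the liver. NR4A1 and C/EBPβ are needed for Ly6C-low patrolling monocytes, KLF4 acts in monocyte differentiation, IRF8 is required for conventional type 1 dendritic cells (cDC1) and IRF4 acts in conventional type 2 dendritic cells (cDC2).

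The WT library was a pool of 5 WT hearts and the KO library a pool of 5 hearts with a global *Lyve1* knockout, with MI induced at postnatal day 2 in every heart and collection after 7 days, when the mice were 9 days old. Live CD45+ cells, negative for the dead-cell stain 7-AAD, were sorted by FACS and sequenced with 10x Genomics 5′ chemistry. Genotype and pool cannot be told apart, since there was 1 library per genotype, and no p-value was computed. Strain and cells per heart were not given for these pools in the sources used here.

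The deposited tables held 67968938 unique molecular identifiers (UMIs, 1 per captured RNA molecule) in 5713 WT barcodes and 61555917 in 5285 KO barcodes. Limits on genes, UMIs and mitochondrial RNA and removal of doublets kept 4187 WT and 3391 KO cells, with medians of 11106 and 12856 UMIs. The libraries shared 9 cell barcodes, 3 of them among the kept cells. *Lyve1*, the knocked-out gene, had 247 CPM (UMIs of the gene per 1000000 UMIs of the same cells) in kept WT cells and 13.1 in kept KO cells. Its level in the WT library was highest in the Folr2/Cd163 class, with 1587 CPM against 34.9 in the KO library. In the KO library *Lyve1* was present at 2.43 to 34.9 CPM in all 9 classes, also in the cDC1-like class with 18.4 CPM, where the WT library had 0 UMIs.

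Cells were grouped by clustering from which the 9 factors were excluded, and clusters were named by marker genes. The macrophage-like classes were Prg4-high (55 WT and 49 KO cells), Cd207/Clec4f (68 and 18), Folr2/Cd163 (195 and 130), Olfml3/Fcrls (547 and 205) and Ccr2-positive (194 and 189). The monocyte-like classes were Ly6c2-high (243 and 244) and Ace/Treml4 (175 and 204), the latter marked like Ly6C-low patrolling monocytes. The DC-like classes were cDC1-like (24 and 25) and cDC2-like (37 and 35). Of the markers used for these 9 names, *C6* and *Cd5l* of the Cd207/Clec4f list were at 0 in their class, where *Cd207* had 1292 CPM in the WT and 1504 in the KO library. Plasmacytoid DC-like cells (16 and 11) and Ccr7-marked DC-like cells (22 and 5) were kept aside as too few. Unnamed clusters held 1077 WT and 944 KO cells, and cells of low depth 505 and 159, none of which are in the named classes.

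Levels in CPM were taken from the UMIs summed over a class in 1 library, with an exact Poisson 95% interval. These intervals, and the exact binomial (Clopper-Pearson) 95% intervals of shares, cover counting error only and hold no spread between hearts. Classes next to each other in the order of a gene are called apart only where both values of one lay above both values of the other. The share of cells with a UMI is given after each cell with at least 10200 UMIs was thinned to that number, so that classes of different depth can be compared. Shallower cells were left out, among them 50 of 175 WT Ace/Treml4 cells and 310 of 351 WT neutrophil-like cells. In shallow classes the shares therefore describe only the deeper cells.

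**Figure D1:**
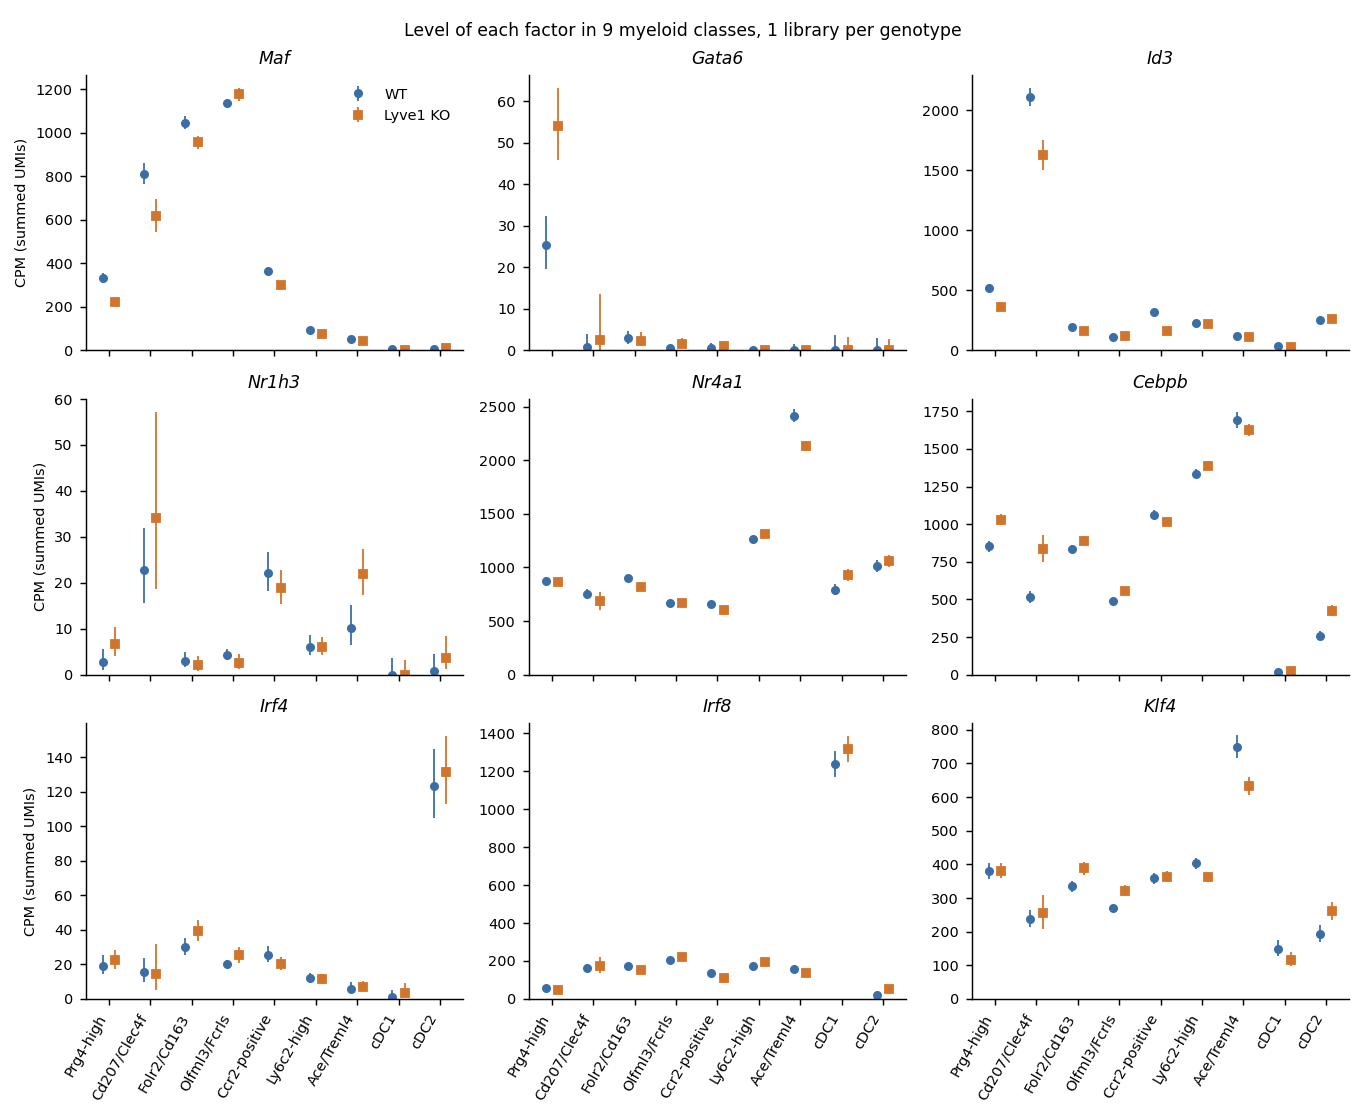
Level of each of the 9 factors (y axis, CPM, linear scale from 0) in 9 myeloid classes (x axis), with circles for the WT library and squares for the *Lyve1* KO library and bars for exact Poisson 95% intervals. *Gata6*, *Id3*, *Irf4* and *Irf8* each stand out in 1 class in both libraries, whereas *Maf*, *Cebpb* and *Nr4a1* are graded over many classes.

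*Maf* (ENSMUSG00000055435, chr8:115682942-115707794, minus strand, GRCm38) was highest in 3 of the 5 macrophage-like classes. The Olfml3/Fcrls class had 1137 CPM (1118 to 1156) in the WT library and 1176 CPM (1146 to 1207) in the KO library. The Folr2/Cd163 class followed with 1047 and 956 CPM, and the Cd207/Clec4f class with 811 and 616 CPM. Each of these 3 classes lay above the next one in both libraries, although the first was only 1.09-fold above the second in the WT library. When each cell was assigned by its own marker scores, the Folr2/Cd163 class was the highest in the WT library with 1129 CPM. The Ccr2-positive class (363 and 299.9 CPM) and the Prg4-high class (330.3 and 224 CPM) overlapped. Monocyte-like cells were lower again, with 95.2 and 73.1 CPM in the Ly6c2-high class and 51.9 and 42.6 CPM in the Ace/Treml4 class.

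In DC-like cells *Maf* was close to absent, with 7 and 16 UMIs in the cDC2-like class and 4 and 2 UMIs in the cDC1-like class. At 10200 UMIs a cell, *Maf* was found in 99.0% of WT and 98.9% of KO cells of the Olfml3/Fcrls class and in 43.0% and 34.7% of Ly6c2-high cells. Neutrophil-like cells, of which 41 WT and 61 KO cells reached that depth, had shares of 0% and 1.64%. T cell-like cells had *Maf* in 46.0% and 35.2% of cells, and c-MAF is also a factor of T cell subsets.

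Over 16 points, 8 classes in each of 2 libraries, *Tmem86a*, *Pdlim4* and *Tnfsf12* were the genes most like *Maf* among 5305 compared (Pearson r of log2 levels 0.984, 0.978 and 0.978). These points share libraries and classes, and the correlations here and below are descriptions; the Cd207/Clec4f class, with 18 KO cells, was not among them.

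*Gata6* (ENSMUSG00000005836, plus strand of chromosome 18) was the member most restricted to 1 class. The Prg4-high class, which also has *Prg4* and *Saa3* among its markers, had 25.4 CPM (19.7 to 32.4; 66 UMIs) in the WT library and 54.1 CPM (45.9 to 63.3; 155 UMIs) in the KO library. No other class exceeded 2.86 CPM. In the WT library this was 8.89-fold over the next class, Folr2/Cd163, and in the KO library the next class, Cd207/Clec4f, rested on 1 UMI (2.43 CPM, 0.0616 to 13.6). Not a single UMI of *Gata6* was found in either monocyte-like class, in any DC-like class, or in neutrophil-like, B cell-like or T cell-like cells of either library, and the interval in the 243 WT Ly6c2-high cells reached up to 0.663 CPM.

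Within the Prg4-high class *Gata6* was not found in every cell. Without thinning, 18 of 55 WT cells (32.7%) and 25 of 49 KO cells (51.0%) had a UMI, and the cell with most UMIs gave 13.6% and 13.5% of the total. At 10200 UMIs the shares were 13.5% (5.59% to 25.8%) in the WT and 39.1% (25.1% to 54.6%) in the KO library. The share in B cell-like cells at that depth was 0% in both libraries. *Ucp1*, *Selp* and *Prg4* had the patterns most like *Gata6* over the 16 points (r = 0.983, 0.982 and 0.981), and *Prg4* is a marker by which the class was named. The other GATA factors were at or near 0 in all 9 classes, with *Gata4* in Cd207/Clec4f cells the highest of them (3.44 CPM in the WT library, 7.30 CPM in the KO library). *Gata4* and *Gata6* are also factors of cardiomyocytes, and the summed level of 10 cardiomyocyte markers was 340.3 and 129 CPM in the Cd207/Clec4f class against 22.7 and 57.2 CPM in the Prg4-high class.

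Of 10 genes known from cavity macrophages, several of which depend on GATA6 in the peritoneum, 7 were highest in the Prg4-high class in both libraries. This count is a description only, since the list was written with earlier results of these data known. The share of all genes highest in this class is not given here. *Icam2*, an adhesion molecule of cavity macrophages, had 377 CPM in the WT and 354 CPM in the KO library there and at most 30.01 CPM in any other class. *Selp*, the gene of P-selectin, had 88.3 and 296 CPM, and *Ltbp1*, a binding protein of latent TGFβ, had 24.3 and 117 CPM. *Cd93*, *Apoc1* and *Aspa* were the 3 genes of the list that were highest elsewhere. *Aspa* had 39.7 and 145 CPM in the Prg4-high class against 46.2 and 158 CPM in the Cd207/Clec4f class.

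*Id3* (ENSMUSG00000007872, chr4:136143497-136145755, plus strand) encodes an inhibitor that binds E proteins and keeps them from DNA. It had its highest level in the Cd207/Clec4f class, 2113 CPM (2039 to 2189) in the WT and 1624 CPM (1503 to 1752) in the KO library. In the KO library 1 of the 18 cells gave 19.6% of the *Id3* UMIs. The Prg4-high class came next with 523 and 359.6 CPM, so that the first class was 4.04-fold and 4.51-fold above the second. *Id3* was found in 67 of 68 WT cells and 17 of 18 KO cells of the Cd207/Clec4f class. At 10200 UMIs its shares were 98.3% and 94.1% there and 84.6% and 69.6% in the Prg4-high class. The cDC2-like, Ccr2-positive and Ly6c2-high classes overlapped between 165 and 321 CPM, and the cDC1-like class was lowest with 36.0 and 25.4 CPM.

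The relatives of *Id3* had the same highest class. *Id1* had 371 CPM in the WT and 109.5 CPM in the KO library in the Cd207/Clec4f class, and the next class was Ly6c2-high with 74.0 and 94.9 CPM. *Id2*, which is also needed for cDC1, had 1706 and 1619 CPM in the Cd207/Clec4f class and was second in the cDC1-like class with 806 and 1283 CPM. *Id4* was at or near 0 in all classes. CLEC4F and VSIG4 are known as Kupffer cell markers, and *Clec4f* (143 and 51.1 CPM) and *Vsig4* (979 and 477 CPM) were among the markers by which this class was named. *Clec4f* was found in 31.4% of its cells. Of the same marker list, *C6* and *Cd5l* had 0 UMIs in this class, and *Slc40a1* was highest in the Folr2/Cd163 class. *Osm*, *Eepd1* and *Zc3h12a* were most like *Id3* over the 16 points, which leave out the Cd207/Clec4f class, with r between 0.879 and 0.883.

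*Nr1h3* (ENSMUSG00000002108, chr2:91184061-91202834, minus strand) was low in every class. It had 22.7 CPM (15.6 to 31.9) from 33 UMIs in WT and 34.1 CPM (18.6 to 57.2) from 14 UMIs in KO cells of the Cd207/Clec4f class, and 9 of the 14 came from 1 cell. Without the cell with most UMIs in each class and library, the Ace/Treml4 class was the highest in the KO library with 19.9 CPM. The Ccr2-positive class had 22.1 and 18.8 CPM, and the Ace/Treml4 class 10.1 and 21.9 CPM. The counting intervals of the Cd207/Clec4f and Ccr2-positive classes overlapped in both libraries. The classes with most *Maf* had little *Nr1h3*, with 4.31 and 2.52 CPM in the Olfml3/Fcrls class and 3.05 and 2.03 CPM in the Folr2/Cd163 class. At 10200 UMIs *Nr1h3* was found in 12 of 60 WT and 3 of 17 KO cells of the Cd207/Clec4f class and in 0% and 0.308% of B cell-like cells.

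The related receptor LXRβ, encoded by *Nr1h2*, was spread evenly, with 45.7 to 89.5 CPM over all classes and libraries. Among 10 known targets of LXR, 8 had the same highest class in both libraries, and these classes differed from gene to gene. *Apoe* was highest in the Folr2/Cd163 class with 18809 and 16726 CPM, followed closely by the Cd207/Clec4f class with 18416 and 15910.1 CPM. *Mylip*, which lowers the LDL receptor, was highest in the Cd207/Clec4f class with 382 and 309 CPM. *Abca1* was highest in the Folr2/Cd163 class (719 and 734 CPM) and *Abcg1*, the other cholesterol exporter, in the Ace/Treml4 class (135 and 97.9 CPM). *Acp5* and *N4bp1* were among the 3 genes most like *Nr1h3* (r = 0.874 and 0.870), again without the Cd207/Clec4f class.

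*Nr4a1* (ENSMUSG00000023034, chr15:101254269-101274795, plus strand), *Cebpb* (ENSMUSG00000056501, chr2:167688915-167690418, plus strand) and *Klf4* (ENSMUSG00000003032, chr4:55527143-55532466, minus strand) all had their highest level in the Ace/Treml4 class. *Nr4a1* had 2416 CPM (2354 to 2479) in the WT and 2132 CPM (2084 to 2181) in the KO library there. *Cebpb* had 1693 CPM (1641 to 1746) and 1625 CPM (1583 to 1668). *Klf4* had 749.6 CPM (715 to 785) and 632 CPM (606 to 659). In this class all 125 WT and 182 KO cells of sufficient depth had a UMI of *Cebpb* after thinning.

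*Cebpb* and *Klf4* were the pair of members most alike over the 16 points (r = 0.904). *Nr4a1* was less like either, with r of 0.310 for *Cebpb* and 0.524 for *Klf4*. Because these 3 genes share a highest class, the 250 bases before their RefSeq transcription starts are shown, in GRCm38.p6 coordinates and 5′ to 3′ on the strand of the gene. Capitals mark the core of the cAMP response element (CRE), TGACG or its complement CGTCA, through which immediate early genes such as *Nr4a1* are known to be induced. The windows hold 4, 3 and 1 matches, and 17.8% of 32851 promoter windows of the same length hold at least 1. The *Nr4a1* window is at chr15:101266596-101266845, plus strand, inside the span of the gene but outside its annotated exons. The *Cebpb* window is at chr2:167688665-167688914, plus strand. The *Klf4* window is at chr4:55532476-55532725, minus strand.
Nr4a1: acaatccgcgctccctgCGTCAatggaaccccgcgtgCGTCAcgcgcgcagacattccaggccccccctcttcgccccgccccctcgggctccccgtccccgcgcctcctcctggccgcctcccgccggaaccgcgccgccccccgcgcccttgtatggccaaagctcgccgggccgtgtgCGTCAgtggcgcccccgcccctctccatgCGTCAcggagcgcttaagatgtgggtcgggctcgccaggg
Cebpb: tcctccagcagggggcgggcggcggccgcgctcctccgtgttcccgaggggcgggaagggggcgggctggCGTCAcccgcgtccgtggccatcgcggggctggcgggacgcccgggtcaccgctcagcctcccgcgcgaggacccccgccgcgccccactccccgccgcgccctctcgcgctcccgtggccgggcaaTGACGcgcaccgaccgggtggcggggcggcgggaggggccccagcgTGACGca
Klf4: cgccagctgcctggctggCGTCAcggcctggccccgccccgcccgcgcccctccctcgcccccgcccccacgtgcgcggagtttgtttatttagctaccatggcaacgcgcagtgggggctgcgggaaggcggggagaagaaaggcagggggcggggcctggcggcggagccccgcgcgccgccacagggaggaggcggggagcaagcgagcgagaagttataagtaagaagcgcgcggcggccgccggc

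Windows from the promoter table were searched for 7 of the 9 members, and not for *Maf* and *Gata6*. Of the 7 members searched, 4 held this core, the fourth being *Id3* with 1 match. The 250 bases of that *Id3* window all lie in annotated exons of the gene. A match describes the letters of a window and does not show that a factor binds there.

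The Ly6c2-high class was second for all 3 genes in the WT library, and for *Nr4a1* and *Cebpb* in the KO library. Further down the order the 3 genes parted. *Nr4a1* was second in the Ly6c2-high class (1264 and 1315 CPM), followed by the cDC2-like class (1012 and 1057 CPM), and its lowest class, Ccr2-positive, still had 656 and 604 CPM. The range from the lowest to the highest class was 3.68-fold in the WT and 3.53-fold in the KO library. At 10200 UMIs it was found in 69.5% to 100% of cells in all 9 classes, and also in 73.2% and 80.3% of neutrophil-like cells, so that it was a widely expressed gene with a peak and not a marker of 1 class. *Map4k2*, *Nabp1* and *Acot9* had the patterns most like it (r = 0.966, 0.959 and 0.932).

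*Cebpb* was high in all monocyte-like and macrophage-like classes and low in cDC1-like cells. Neutrophil-like cells, which are not among the 9 classes, were also high, with 1372 CPM in the WT and 1111 CPM in the KO library. The Ly6c2-high class had 1336 and 1388 CPM, the Ccr2-positive class 1063 and 1012 CPM and the Olfml3/Fcrls class, lowest among macrophages in both libraries, 489 and 559 CPM. The cDC2-like class had 259.8 and 424 CPM. In cDC1-like cells there were 14.6 CPM (8.17 to 24.1) in the WT and 24.6 CPM (16.3 to 35.5) in the KO library, 116-fold and 66.2-fold below the Ace/Treml4 class. In this class 7 of 24 WT and 9 of 25 KO cells had a UMI of *Cebpb*, and after thinning 0 of 23 WT (95% interval up to 14.8%) and 2 of 25 KO cells. *Zeb2*, a repressor known from monocytes and cDC2, and *Cybb*, which encodes a subunit of the phagocyte NADPH oxidase, were among the 3 genes most like *Cebpb* (r = 0.973 and 0.961). *Zeb2* had 6.81 and 46.5 CPM in cDC1-like cells and at least 470.4 CPM in every other class.

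*Klf4* was lowest in cDC1-like cells with 149.8 and 117 CPM, 5.00-fold and 5.42-fold below the Ace/Treml4 class. Between these, the Ly6c2-high, Prg4-high, Folr2/Cd163 and Ccr2-positive classes overlapped at 335 to 403 CPM. *Klf2*, a relative known from quiescent cells and patrolling monocytes, was likewise highest in the Ace/Treml4 class, with 1621 and 1446 CPM. *Susd6*, *Ptpn12* and *Diaph2* were most like *Klf4*, with r of 0.956 to 0.957.

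The other NR4A receptors had other highest classes. *Nr4a2* had 693 CPM in WT and 452 CPM in KO cDC1-like cells, against 117 and 76.9 CPM in the Ace/Treml4 class. *Nr4a3* had 253 and 329 CPM in cDC2-like cells, against 46.0 and 15.04 CPM in the Ace/Treml4 class. Since *Nr4a1*, *Klf4* and *Cebpb* can be induced within minutes during tissue dissociation, 16 immediate early and heat-shock genes were read beside them. Their summed level was 22009.5 and 18397 CPM in the Ace/Treml4 class, and 12297 and 8552 CPM in the Prg4-high class. The Ace/Treml4 class was the highest in both libraries. The Cd207/Clec4f class had 21172 and 15355 CPM, the Folr2/Cd163 class 20033 and 17598 CPM and the Olfml3/Fcrls class 19128 and 18282 CPM. Ly6c2-high cells had 16224 and 16216 CPM and cDC2-like cells 16361 and 14237 CPM. Ccr2-positive cells had 14190 and 14616 CPM and cDC1-like cells 11630 and 10887 CPM. Of the 16 genes, 4 were highest in the Ace/Treml4 class and 4 in the Folr2/Cd163 class in both libraries. Among them, *Hspa1a* was highest in the Ace/Treml4 class (3989.9 and 3301 CPM), whereas *Junb* (3966 and 3516 CPM) and *Egr1* (1038 and 715 CPM) were highest in the Folr2/Cd163 class. The part of dissociation in the levels of the 3 factors was not tested.

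**Figure D2:**
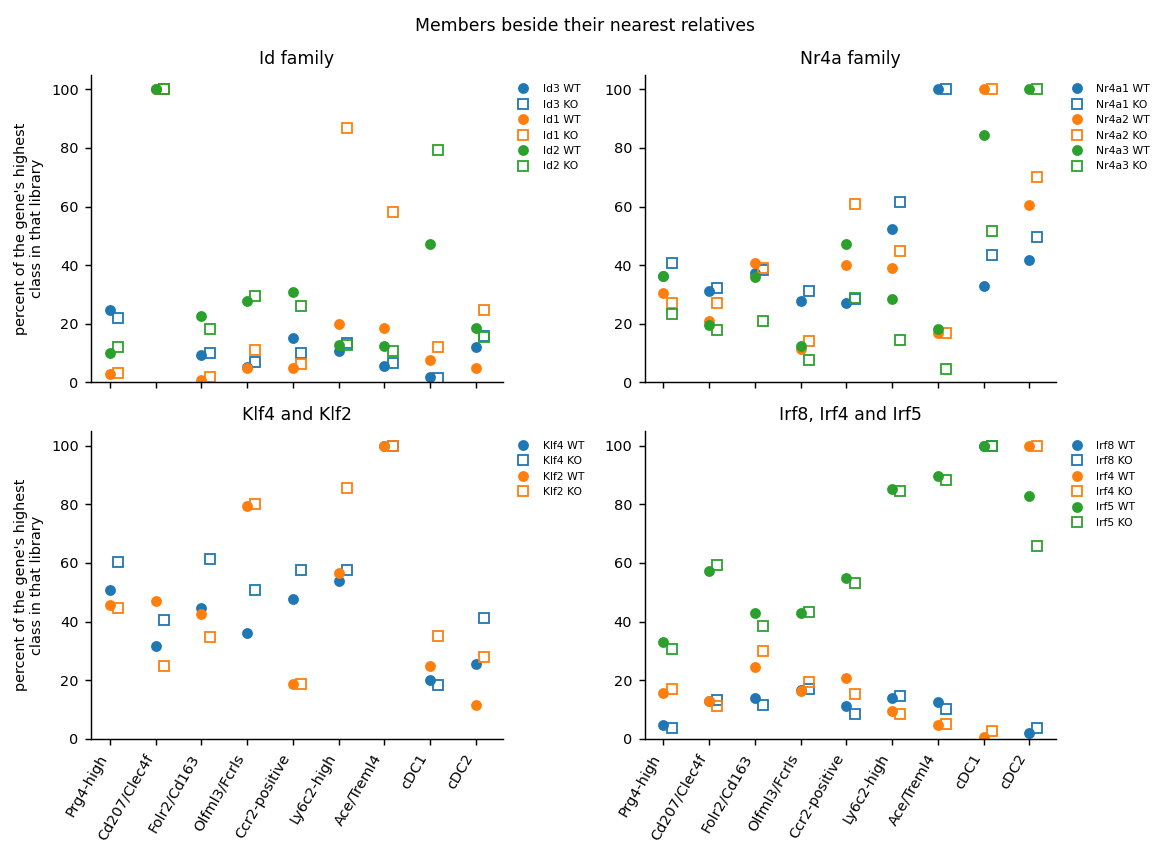
Level of members and their nearest relatives in each class (x axis) as percent of the gene's highest class in the same library (y axis), with filled circles for the WT and open squares for the KO library. The 3 *Id* genes share the Cd207/Clec4f class as their highest, whereas *Nr4a1*, *Nr4a2* and *Nr4a3* are highest in Ace/Treml4, cDC1-like and cDC2-like cells.

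*Irf8* (ENSMUSG00000041515, chr8:120736358-120756694, plus strand) and *Irf4* (ENSMUSG00000021356, chr13:30749226-30766976, plus strand) divided the DC-like cells between them. *Irf8* had 1235 CPM (1168 to 1305) in WT and 1316 CPM (1250 to 1384) in KO cDC1-like cells, and 23.4 CPM (15.7 to 33.6) and 50.2 CPM (39.0 to 63.5) in cDC2-like cells. *Irf4* had 123 CPM (104.7 to 145) and 132 CPM (113 to 152) in cDC2-like cells, and 1 UMI in WT and 4 UMIs in KO cDC1-like cells. For both genes, each library on its own showed this opposite order.

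*Irf8* was 5.97-fold and 5.89-fold above the next class, Olfml3/Fcrls, which had 207 and 223 CPM. The other macrophage-like classes and both monocyte-like classes overlapped at 111 to 192 CPM, except the Prg4-high class, which was lower with 60.1 and 47.8 CPM. In the KO library 1 cell gave 49.3% of the *Irf8* UMIs of the cDC2-like class. Plasmacytoid DC-like cells, which also depend on IRF8, had 2221 CPM in 16 WT and 2410 CPM in 11 KO cells, more than cDC1-like cells. B cell-like cells had 138 and 137 CPM, T cell-like cells 16.5 and 6.71 CPM and neutrophil-like cells 0 and 1.98 CPM.

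The promoter window of *Irf8* (chr8:120736108-120736357, plus strand, GRCm38.p6) is shown for the motif of interferon-γ-activated sites (GAS). This motif is TTC and GAA with any 3 bases between them, and no other window searched for the members held it. The motif, searched on both strands and identical on each, occurs at 2 places, in capitals, and 7.02% of the 32851 windows hold it. The other window of *Irf8* in the table holds none.
Irf8: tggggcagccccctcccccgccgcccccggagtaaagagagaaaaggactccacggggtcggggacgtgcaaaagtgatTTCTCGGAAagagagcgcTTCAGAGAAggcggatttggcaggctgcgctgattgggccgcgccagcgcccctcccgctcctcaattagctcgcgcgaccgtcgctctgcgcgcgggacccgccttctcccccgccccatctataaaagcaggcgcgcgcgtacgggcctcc

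*Irf4* was 4.10-fold and 3.35-fold above the next class, Folr2/Cd163, which had 30.1 and 39.3 CPM. All others of the 9 classes had at most 25.6 CPM, and the Ace/Treml4 class had 5.91 and 6.81 CPM. Outside these classes, plasmacytoid DC-like cells had 45.0 CPM in 16 WT and 161 CPM in 11 KO cells. B cell-like cells had 230 CPM in the WT and 225 CPM in the KO library. At 10200 UMIs *Irf4* was found in 47.2% of WT and 42.4% of KO cDC2-like cells, in 24.7% and 29.8% of Folr2/Cd163 cells and in no cDC1-like cell. Neutrophil-like cells had 0% and B cell-like cells, which use IRF4 as well, 70.3% and 66.8%. The 22 Ccr7-marked DC-like cells of the WT library had 75.9 CPM (17 UMIs) and the 5 of the KO library 129 CPM (28 UMIs). Their median depths were 3482 UMIs in the WT and 45853 UMIs in the KO library, so these levels are not compared between libraries.

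*Irf5* was also highest in cDC1-like cells with 358 and 365 CPM, but only slightly above the Ace/Treml4 class with 321 and 322 CPM. *Batf3*, the partner of IRF8 in cDC1, had 192 and 201 CPM in cDC1-like and 101 and 117 CPM in cDC2-like cells. *Zbtb46*, a factor of conventional dendritic cells, had 89.5 and 69.3 CPM in cDC1-like and 67.8 and 36.3 CPM in cDC2-like cells and at most 15.3 CPM elsewhere. *Bhlhe40* had 449 and 429.6 CPM in cDC2-like cells. *Ppt1*, *Phc2* and *Txndc15* were most like *Irf8* (r = 0.964, 0.913 and 0.908), and *Arl8b*, *Gfra2* and *Mgl2* most like *Irf4* (r = 0.925, 0.907 and 0.907). *Mgl2* is 1 of the markers by which the cDC2-like class was named.

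**Figure D3:**
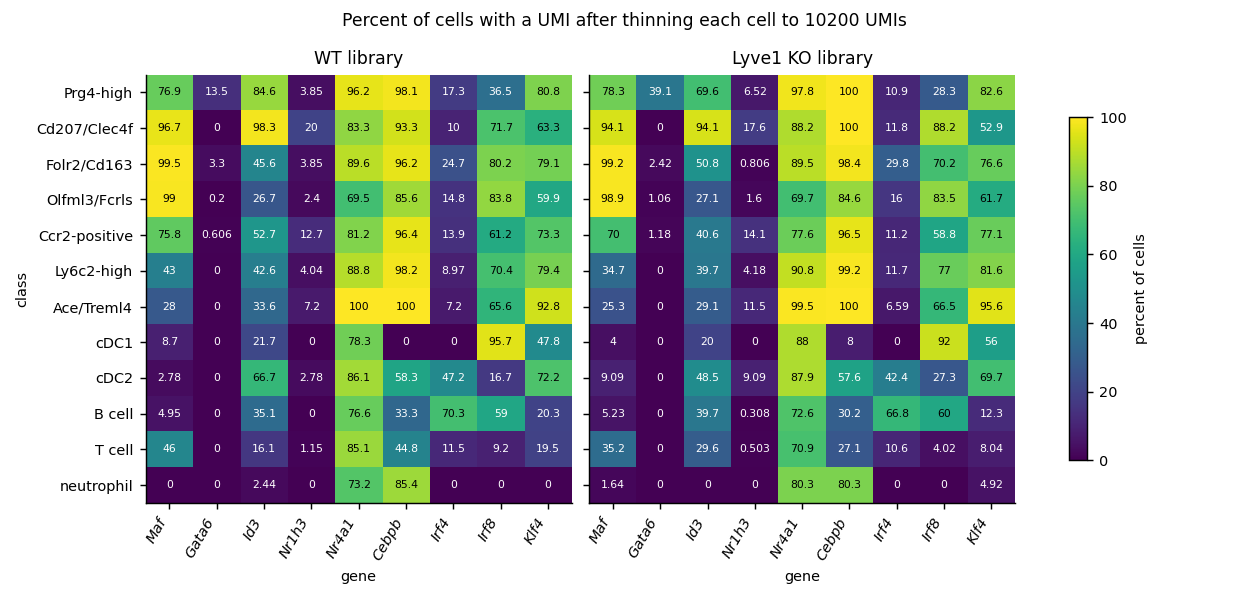
Percent of cells with at least 1 UMI of each factor (columns) in 9 myeloid classes and 3 other cell classes (rows), for the WT library (left) and the KO library (right). Each cell was thinned to 10200 UMIs, and cells with fewer were left out. *Gata6* is at 0% outside macrophage-like classes, *Irf8* is at 92.0% or more in cDC1-like cells and *Cebpb* and *Nr4a1* are found in most cells of most classes.

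Each pool held hearts of both sexes, and cells with *Xist* RNA and cells with Y-linked RNA come from different hearts. They gave 4 separate parts: 1038 WT and 984 KO cells with *Xist* only, and 1982 and 1435 cells with Y-linked RNA only. For 8 of the 9 factors the highest class was the same in all 4 parts. The exception was *Nr1h3*, which in cells with Y-linked RNA was highest in the Ccr2-positive class of the WT library (23.8 CPM) and the Ace/Treml4 class of the KO library (23.6 CPM). *Id3* in the Cd207/Clec4f class had 1454 and 1025 CPM in WT and KO *Xist* cells and 2494 and 1996 CPM in cells with Y-linked RNA. *Irf8* in cDC1-like cells had 1441 and 1516 CPM in *Xist* cells and 1156 and 1226 CPM in cells with Y-linked RNA.

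The comparison of the KO with the WT library asked whether the factors differ between the genotypes within a class. The measure was the log2 ratio of KO over WT after adding 10 CPM to each, for genes whose UMIs in the 2 libraries summed to 100 or more. It could be taken for 58 of 81 pairs of a factor and a class, and in 0 of them was it past 2-fold in either direction. This count rests on the 10 CPM added, since with 1 CPM added the ratios of *Gata6* in Prg4-high cells (1.06) and of *Nr1h3* in Ace/Treml4 cells (1.04) were past 2-fold. The KO library was higher in 28 pairs and lower in 30, the median size was 0.17, and 51 pairs were below 0.5 in size.

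Over all genes tested in the same class, the share past 2-fold was 1.28% in Prg4-high, 3.23% in Cd207/Clec4f, 0.481% in Folr2/Cd163, 0.234% in Olfml3/Fcrls and 0.558% in Ccr2-positive cells. It was 0.29% in Ly6c2-high, 0.504% in Ace/Treml4, 2.1% in cDC1-like and 2.06% in cDC2-like cells. Against these shares, 0 of 58 pairs is close to what all genes show.

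The ratio furthest from 0 was that of *Id3* in the Ccr2-positive class, −0.92 (−1.03 to −0.81), from 321 CPM in the WT and 165 CPM in the KO library. It was −0.94 in *Xist* cells and −0.95 in cells with Y-linked RNA. Of the markers by which this class was named, *Spp1* had 548 CPM in the WT and 2357 CPM in the KO library. *Arg1* had 1167 and 2249 CPM. *Ccr2* and *Tgfbi* were also higher in the KO library, and *Il1b*, *Mefv*, *H2-Aa*, *H2-Ab1* and *Cd74* were lower. The part of these markers in the *Id3* ratio was not tested. In the same class the summed level of 5 proliferation markers, 0 of them absent in either library, was 188 CPM in the WT and 33.8 CPM in the KO library, and that of 10 cardiomyocyte markers 72.3 and 17.2 CPM, and their part in the *Id3* ratio was not tested. In the Prg4-high class *Id3* had a ratio of −0.53 (−0.64 to −0.41) and *Maf* of −0.54 (−0.69 to −0.40). *Id1* in the Cd207/Clec4f class, a relative and not a member, was past 2-fold, with a ratio of −1.67 (−2.10 to −1.26). It was 1 of 3 relatives past 2-fold lower there among 20 tested, with 0 higher, against 3.23% of all genes in either direction. Of the relatives tested elsewhere, 1 of 23 was past 2-fold lower in the Ace/Treml4 class. In the cDC2-like class 1 of 17 was higher and 1 lower.

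*Gata6* in the Prg4-high class had a ratio of 0.85 (0.53 to 1.18). In *Xist* cells, 13 WT and 8 KO cells, the levels were 43.2 and 47.7 CPM. In cells with Y-linked RNA, 39 WT and 38 KO cells, they were 20.8 and 55.4 CPM, and 27 and 19 of the *Gata6* UMIs came from *Xist* cells against 39 and 131 from the others. Of the cavity macrophage genes with 100 UMIs in this class, 5 of 9 were past 2-fold higher in the KO library and 0 lower. Of all 6037 genes tested in this class, 47 were past 2-fold higher and 30 lower. The median ratio of the 9 genes was 1.34 against 0.00 over all genes tested. The 9 genes were read in the same cells, from a list written with earlier results known, and their split by sex-linked RNA is not given. The 5 genes past 2-fold were *Ltbp1* (1.89), *Garnl3* (1.82), *Aspa* (1.64), *Selp* (1.64) and *Tgfb2* (1.34). *Icam2* (−0.09) and *Rarb* (−0.07) of the same list were close to 0. Markers by which the Prg4-high class was named differed as well, with 771 CPM in the WT and 1698 CPM in the KO library for *Prg4*, 357 and 918 CPM for *Alox15*, and 10219 and 4598 CPM for *Saa3*, and their part in the *Gata6* ratio was not tested. In the other direction, *Apoe* had 10174 CPM in the WT and 4584 CPM in the KO library (−1.15), and 2 of 16 immediate early and heat-shock genes, *Fos* (−1.16) and *Hspa1b* (−1.49), were past 2-fold lower.

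*Cebpb* had a ratio of 0.69 in both the Cd207/Clec4f class (0.51 to 0.88) and the cDC2-like class (0.49 to 0.88), and in the other 6 classes with enough UMIs its ratio was between −0.07 and 0.27. In the Cd207/Clec4f class 5 of 16 immediate early and heat-shock genes were past 2-fold lower in the KO library and 0 higher, and 5 proliferation markers had a summed level of 92.3 CPM in the WT and 504 CPM in the KO library, in 68 and 18 cells. Their part in the *Cebpb* ratio was not tested. *Nr1h3* had 24 UMIs in WT and 77 in KO cells of the Ace/Treml4 class, a ratio of 0.66 (0.27 to 1.03). *Maf* was lower in the KO library in 6 of 7 classes, with ratios from −0.54 to 0.05, but both parts of the pools did not share this. In *Xist* cells its ratio was above 0 in the Prg4-high (0.03), Folr2/Cd163 (0.01), Olfml3/Fcrls (0.17) and Ccr2-positive (0.11) classes. It was below 0 there in the Cd207/Clec4f (−0.32), Ly6c2-high (−0.20) and Ace/Treml4 (−0.50) classes. In cells with Y-linked RNA it was below 0 in all of these classes except Olfml3/Fcrls (0.003). *Nr4a1*, *Irf4*, *Irf8* and *Klf4* stayed between −0.34 and 0.42 in all classes with enough UMIs.

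**Figure D4:**
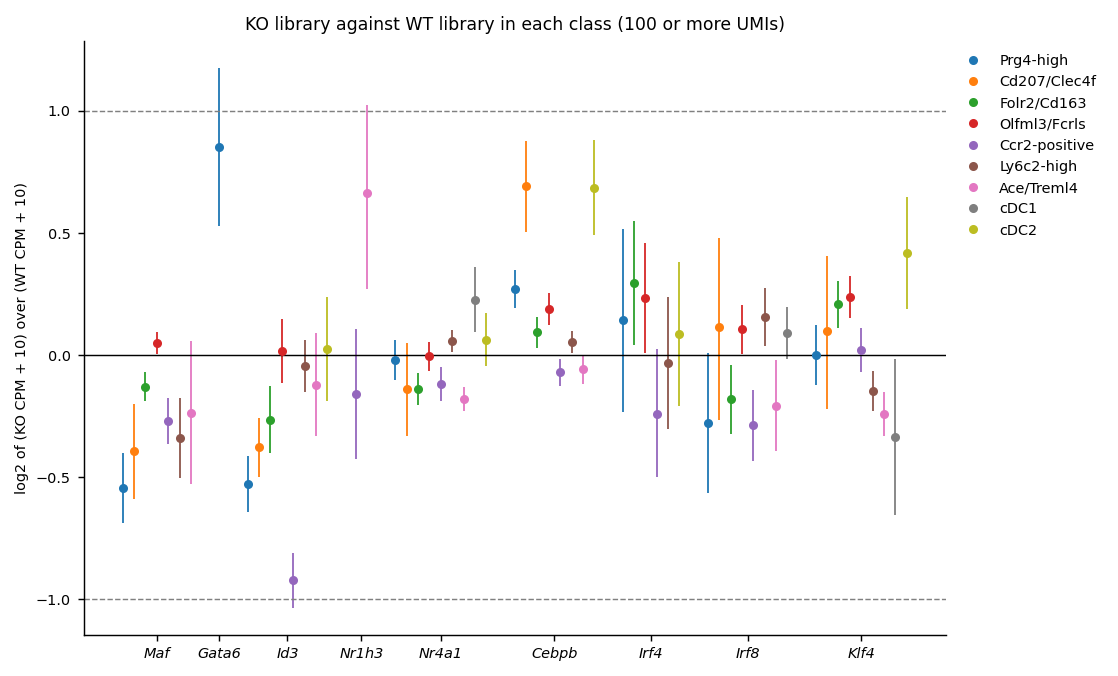
Log2 ratio of the KO over the WT library (y axis, 10 CPM added) for each factor (x axis) in each class with at least 100 UMIs, coloured by class, with counting intervals at 95% as bars and dashed lines at 2-fold. No point lies beyond the lines, and *Id3* in Ccr2-positive cells (−0.92) and *Gata6* in Prg4-high cells (0.85) are furthest from 0.

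When the same ratio was taken separately in *Xist* cells and in cells with Y-linked RNA, 48 pairs had at least 100 UMIs in both. The sign was the same in 23 of them and opposite in 25. The median difference between both ratios of a pair was 0.36 in size over these 48 pairs, and the ratios over all cells had a median size of 0.17 over 58 pairs. Each part holds fewer cells and its ratios more counting error, so these sizes are not compared. Those with the same sign in both included the ratios of *Id3* in the Ccr2-positive, Prg4-high and Cd207/Clec4f classes and of *Cebpb* in the cDC2-like class (0.78 and 0.59). The ratio of *Maf* in the Prg4-high class was 0.03 in *Xist* cells and −0.73 in cells with Y-linked RNA.

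**Figure D5:**
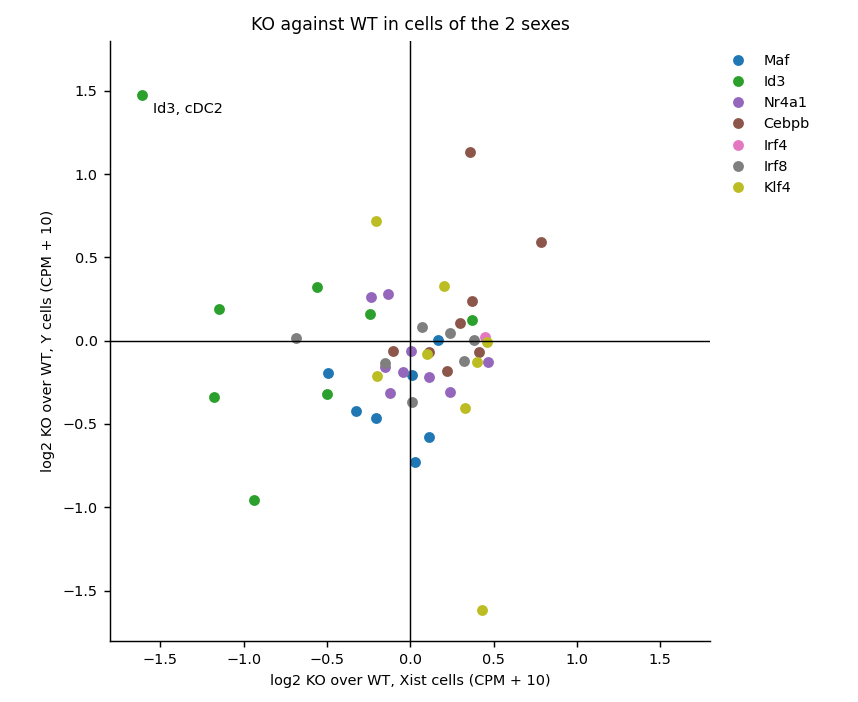
Log2 ratio of the KO over the WT library (10 CPM added) in cells with *Xist* RNA (x axis) and in cells with Y-linked RNA (y axis), 1 point for each of 48 pairs of a factor and a class, coloured by factor. Of these points 23 have the same sign on both axes and 25 opposite signs, and *Id3* in cDC2-like cells lies furthest from the diagonal at −1.61 and 1.47.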

How the data were processed

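The authors deposited raw counts: whole UMI counts per gene and barcode from Cell Ranger on mm10, without normalization. The submitters' processing notes name Cell Ranger 8.0.1. Barcodes under 500 genes or 250 UMIs, or over 30% mitochondrial UMIs, were left out, and doublets were removed by scrublet score (scanpy 1.11.5), at 0.4% per 1000 barcodes. CCA integration (Seurat 5.3.0, R 4.3.3) was run on 2000 variable genes, with regression of cell cycle scores, followed by clustering (30 dimensions, k = 20, resolution 0.8), and myeloid clusters were clustered again. The 9 factors and all list genes were excluded from the features. A cluster took the name of the marker list it scored highest for, with at least 3 markers each in 25% of its cells, and this scoring was set after the data were seen. UMIs were summed per class and library. Genes named are the factors, listed relatives and targets, *Lyve1* and the 3 genes most alike to each factor by Pearson r (genes reaching 50 CPM in at least 1 point, classes with 20 cells per library), and some of these genes are not reported here. The factors and lists were chosen with earlier results of these data known. edgeR 4.0.16 was used only for TMM factors as an alternative. Since each genotype had 1 library, the genotypes were not tested against each other, and values were set side by side. Gene positions are from GENCODE M21 and promoter windows from RefSeq (GRCm38.p6). Sums, intervals and thinning were computed in Python 3.11.15 (scipy 1.17.1, numpy 2.4.6, pandas 2.3.3). Alternatives changed the cell limits, doublets, features, cell cycle regression, resolution, assignment of cells, added CPM, minimum UMIs and scaling, or took cells with *Xist* or Y-linked RNA alone.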

Additional observations from a re-analysis of the deposited data

Results flagged for a closer look

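*Id3* in cDC2-like cells had a log2 ratio of KO over WT of −1.61 in cells with *Xist* RNA and of 1.47 in cells with Y-linked RNA, past 2-fold in opposite directions. The *Xist* cells were 11 WT and 13 KO cells with 639 and 203 CPM, and the others 23 WT and 20 KO cells with 104 and 306 CPM. The difference was not tested. In the KO library 1 of the 35 cDC2-like cells gave 119 of 356 *Id3* UMIs (33.4%). All KO *Xist* cells together had 100 UMIs and the KO cells with Y-linked RNA 254, so that this cell was among the latter. In the WT library 1 of 37 cells gave 21.6%. The ratios without these cells are not given here. Over all cDC2-like cells the ratio was 0.03.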

How the results depend on the processing

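The number of factors with the same highest class in both libraries was 9 and stayed between 7 and 9 under the 12 alternatives that can change it. *Gata6*, *Id3*, *Nr4a1*, *Cebpb*, *Irf8* and *Klf4* had the same highest class as reported in 12 of 12 in both libraries. *Maf* kept it in 11 in the WT and 12 in the KO library, *Irf4* in 11 in both and *Nr1h3* in 7 and 6. The count of pairs past 2-fold, 0 as reported, was 1 with no doublets left out and 1 with the mean of each cell's CPM (*Id3* in Ccr2-positive cells in both), 2 with 1 CPM added in place of 10 (*Gata6* in Prg4-high and *Nr1h3* in Ace/Treml4 cells), 3 when cells were assigned by their own marker scores, 3 in *Xist* cells and 4 in cells with Y-linked RNA; the cause was not tested. It was 0 under the other 8, also with 20 UMIs as the minimum, which took in 70 pairs. Of 800 ratios under the alternatives 663 lay within the counting interval of the reported value. No Folr2/Cd163 class was found under stricter limits (1000 genes, 10% mitochondrial UMIs), and no cDC2-like class with no doublets left out. Under the stricter limits *Maf* was therefore not set against the Folr2/Cd163 class. With no doublets left out *Irf4* could not keep the cDC2-like class and was highest in the Folr2/Cd163 class of both libraries. No paired analysis was possible because each genotype had 1 library. Depth limits *Nr1h3*, with 14 to 108 UMIs in its highest classes.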
